A study of Arabidopsis thaliana with 48 samples.

Results

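The 42 genes described here are nuclear genes for the light-harvesting antenna and for the nuclear-encoded subunits of photosystem I and photosystem II in Arabidopsis thaliana, of 32824 gene identifiers measured. They were taken by identifier and not by a threshold on measured values. They comprise 8 LHCB1 and LHCB2 genes, 7 genes of the other photosystem II antenna proteins (LHCB3 to LHCB7), 6 LHCA genes of the photosystem I antenna, 12 PSA genes for photosystem I subunits and 9 PSB genes for photosystem II subunits. All 42 had an identifier on a nuclear chromosome and passed the filter on low values (at least 1 FPKM in at least 3 libraries).

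RNA was sequenced from whole seedlings, 6 days old, of a T-DNA insertion line of the ethylene response factor RAP2.3 (rap2.3_1, the one allele analysed here) and of wild-type Col-0 (WT). In each genotype the stresses were excess light (EL, 700 µmol m-2 s-1), heat (HS, 33 °C) and salt (S, growth on 50 mM NaCl), alone and combined (EL+HS, all 3 as S+EL+HS, and salt with each one as S+EL or S+HS), against a control (CT, 50 µmol m-2 s-1 and 21 °C). Light and heat lasted 1.5 h and were given at the end, whereas salt was present from the start of growth, on plates separate from those without salt. Each of the 16 groups had 3 replicates, each a biological repeat taken from plates of many seedlings, which gives 48 libraries. Because roots and shoots were sampled together, fewer green cells and less of an RNA in each green cell cannot be told apart.

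Light-harvesting proteins bind chlorophyll and pass excitation energy to the reaction centres. LHCB1 and LHCB2, with LHCB3, build the trimeric antenna of photosystem II, LHCB4, LHCB5 and LHCB6 are monomeric linkers to its core, and LHCA proteins form a belt on photosystem I. PSA subunits dock ferredoxin, plastocyanin and antenna, and the lumenal PSBO, PSBP and PSBQ proteins hold the oxygen-evolving cluster. The genes lie in the nucleus and their proteins are imported into the chloroplast. In Arabidopsis their transcription is known to be promoted by light and by the GLK transcription factors and to be reduced by retrograde signals from damaged plastids.

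The 250 bases upstream of the annotated gene start were read from the RefSeq assembly TAIR10.1. They are shown for the LHCB2 genes and LHCB7, since LHCB7 and LHCB2.3 were the members highest under EL relative to HS in WT, and LHCB2.1 and LHCB2.2 are close relatives of LHCB2.3. Capitals mark matches, on either strand, to the letters CACGTG (the G-box), GATAAG (the I-box), CCAATC (a motif of GLK targets) and AATATCT (the core of the evening element). LHCB2.1 is read from chr2:1824481-1824730, minus strand, LHCB2.2 from chr2:1800473-1800722, minus strand, LHCB2.3 from chr3:10255656-10255905, plus strand, and LHCB7 from chr1:28728748-28728997, plus strand. The transcribed spans that follow are chr3:10255906-10257489 for LHCB2.3 (AT3G27690), chr1:28728998-28730851 for LHCB7 (AT1G76570), chr2:1822990-1824480 for LHCB2.1 (AT2G05100) and chr2:1799234-1800472 for LHCB2.2 (AT2G05070).
LHCB2.1: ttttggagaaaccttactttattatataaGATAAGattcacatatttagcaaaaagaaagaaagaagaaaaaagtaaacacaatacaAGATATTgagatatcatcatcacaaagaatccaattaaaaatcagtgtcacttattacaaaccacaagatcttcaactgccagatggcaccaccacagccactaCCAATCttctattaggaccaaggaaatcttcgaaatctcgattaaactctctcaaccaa
LHCB2.2: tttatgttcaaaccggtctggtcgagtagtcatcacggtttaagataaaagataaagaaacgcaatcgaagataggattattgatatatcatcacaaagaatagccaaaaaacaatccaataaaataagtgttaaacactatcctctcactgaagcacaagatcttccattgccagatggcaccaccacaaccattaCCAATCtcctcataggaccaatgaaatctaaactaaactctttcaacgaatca
LHCB2.3: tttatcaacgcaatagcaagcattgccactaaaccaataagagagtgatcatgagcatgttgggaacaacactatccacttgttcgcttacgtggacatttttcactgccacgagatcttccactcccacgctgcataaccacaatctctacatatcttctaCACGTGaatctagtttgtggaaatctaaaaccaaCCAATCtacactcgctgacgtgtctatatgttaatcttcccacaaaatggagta
LHCB7: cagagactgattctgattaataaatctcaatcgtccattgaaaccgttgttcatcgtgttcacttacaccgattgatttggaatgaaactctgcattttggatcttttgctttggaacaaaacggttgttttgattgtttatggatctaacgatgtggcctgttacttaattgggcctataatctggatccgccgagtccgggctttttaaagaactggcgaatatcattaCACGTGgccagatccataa

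The GLK motif was in 11 of the 42 upstream windows (26.2%), against 10.2% of the windows of all 27438 protein-coding nuclear genes. It was in 5 of 8 LHCB1 and LHCB2 windows, among them those of all 3 LHCB2 genes, and in 3 of 6 LHCA windows, but in 0 of 12 PSA windows and 1 of 9 PSB windows. The G-box was in 9 of 42 windows (21.4%, against 6.49% of all genes). These were the windows of LHCB2.3, LHCB4.1, LHCB6, LHCB7, LHCA4, PSAE2, PSAH2, PSBQ1 and PSBQ2. The I-box was in 9 of 42 (21.4%, against 12.3%), and the evening element core in 5 of 42 (11.9%, against 10%). These are matches of letters, and no binding was measured.

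Values are FPKM (fragments normalised to transcript length and to the number of mapped fragments), which allows levels of different genes to be compared per length. FPKM summed to between 765860 and 822875 per library, between 21267 and 23316 genes were above 0, and replicates of a group correlated across genes at 0.9438 to 0.9807. RAP2.3 itself ranged between 205.5 and 602.4 FPKM over the 24 libraries that carry the rap2.3 label, against 34.9 and 86.1 FPKM over the 24 WT libraries, so its transcript was higher, not lower, in the insertion line. Those libraries are called the libraries labelled rap2.3 for this reason. Each genotype was also a table of its own, so that genotype and table cannot be told apart.

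At CT these genes were among the most abundant RNAs of the seedling. In WT, 15 of the 20 and 37 of the 100 genes with the highest mean FPKM belonged to the 42. Their median was 2850.1 FPKM, and the levels ran from 23.3 FPKM for LHCB4.3 to 17270.1 FPKM for LHCB1.5. Together they held 11.8 ± 0.403% of the summed FPKM in WT EL, 14.1 ± 0.480% in WT HS, 13.1 ± 0.954% in WT EL+HS and 12.6 ± 1.04% in WT S (SD, n = 3 each). With salt and a second stress they held 10.1 ± 0.779% in WT S+EL, 9.60 ± 0.572% in WT S+HS and 8.98 ± 0.562% in WT S+EL+HS, against 17.02 ± 0.332% in WT CT. No stressed WT library overlapped the CT libraries in this share, and the 3 combinations with salt had the lowest means.

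**Figure D1:**
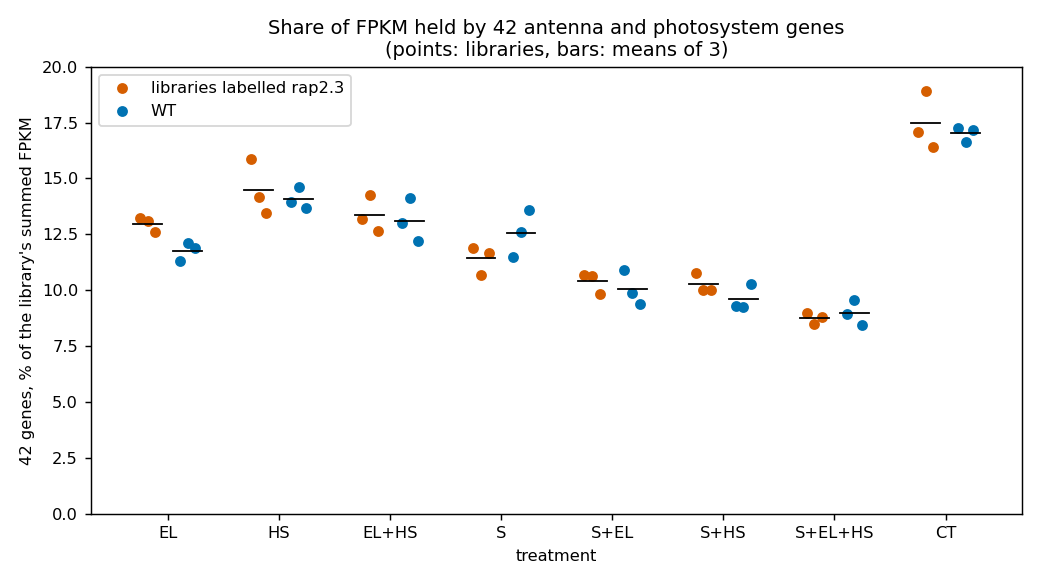
Share of each library's summed FPKM (y axis, %) held by the 42 antenna and photosystem genes, by treatment (x axis), for the libraries labelled rap2.3 (orange) and WT (blue). Points are libraries and black bars means of 3; the CT libraries lie at 16.4% or above, and those of S+EL+HS at 9.56% or below.

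Every stress lowered a part of these genes in WT, and very few rose. EL lowered 34 of 42 and raised 1 (LHCB7), where 7.7% of all 20744 genes tested were called lower and 10% higher. HS lowered 19 (all genes: 15.7% lower, 15% higher) and EL+HS lowered 21 (19.4% lower, 12% higher). S lowered 33 (5.17% lower, 13.6% higher) and S+EL lowered 38 (12.8% lower, 23.2% higher). S+HS lowered 41 (18.9% lower, 26% higher) and S+EL+HS also lowered 41 (16.3% lower, 23.6% higher). None of the 42 rose under these 6 stresses. Under EL+HS, LHCB7 did pass as higher after rescaling by size factors, and PSBO2 without EL+HS replicate 3. The counts under HS and EL+HS are the nearest to the shares of all genes. A gene was called at an adjusted p under 0.05 in limma on log2(FPKM + 1), with p-values adjusted over all genes tested. The median log2 differences of the 42 were -0.39 under EL, -0.24 under HS, -0.27 under EL+HS, -0.42 under S, -0.66 under S+EL, -0.76 under S+HS and -0.85 under S+EL+HS, whereas the medians of all genes were between -0.09 and 0.10. Under EL the count was 21 genes when the fit held only the compared libraries. With 1 library left out, 26 to 34 were called under EL (lowest without CT replicate 3). Under S this range was 22 to 32 (lowest without S replicate 1). The 7 comparisons share the CT libraries.

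**Figure D2:**
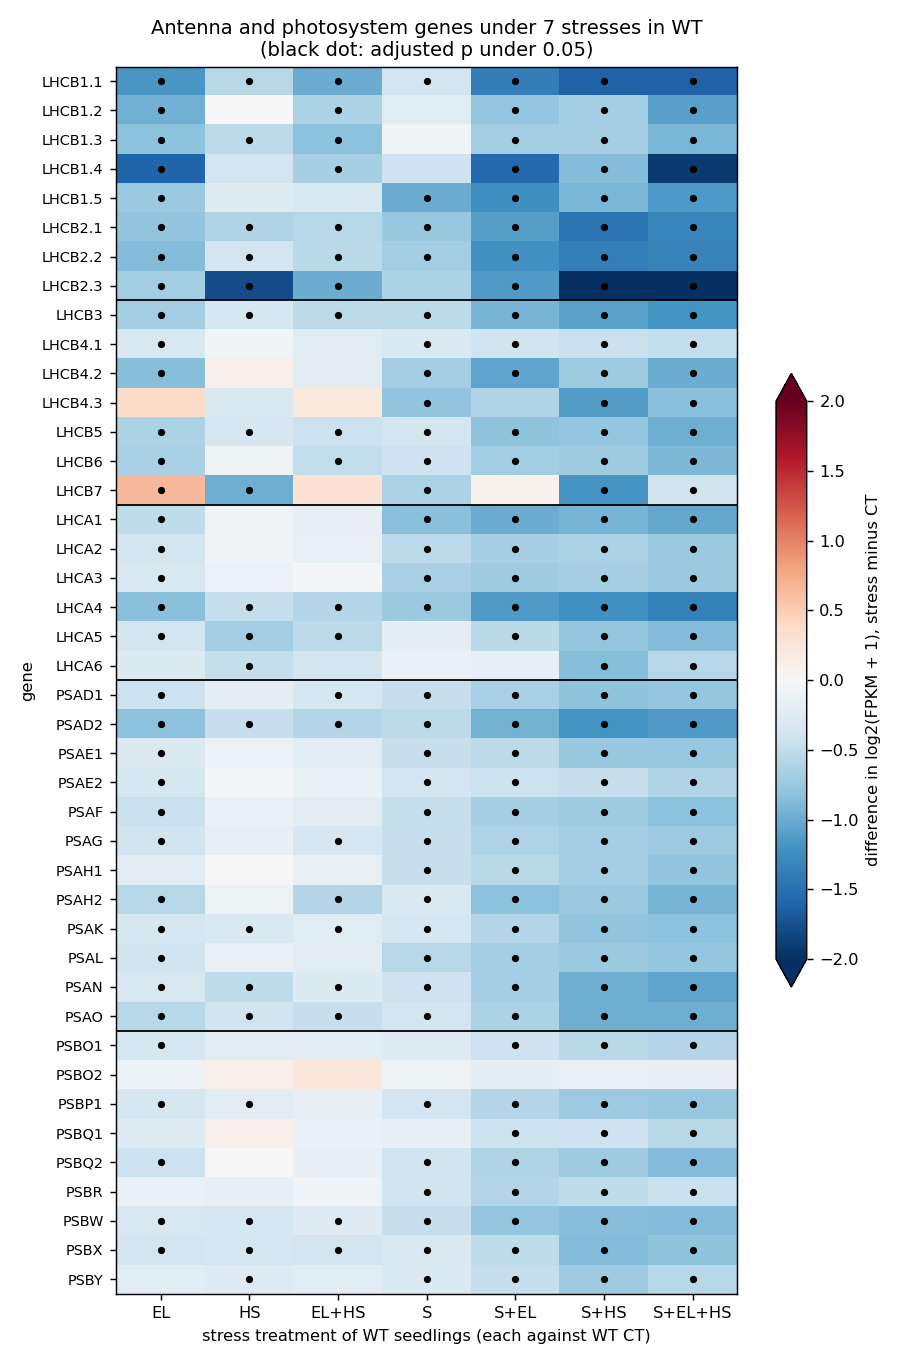
Differences in log2(FPKM + 1) between each stress and CT in WT (colour, blue lower and red higher) for the 42 genes (rows, grouped by class) and 7 stresses (columns). A black dot marks an adjusted p under 0.05; LHCB2.3 under S+HS (-3.25) and S+EL+HS (-2.82) lies beyond the colour scale, LHCB7 under EL is the called red cell, and the PSBO2 row holds no dot.

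The classes lost unequal parts of their summed RNA. The LHCB1 and LHCB2 sum was 26522 ± 455 FPKM in WT EL and 21519 ± 1114 FPKM in WT S+EL+HS, against 48158 ± 2778 FPKM in WT CT (SD, n = 3 each), or 0.551 and 0.447 of CT. The PSB sum was 21491 ± 1379 FPKM in WT EL and 17006 ± 922 FPKM in WT S+EL+HS, against 25692 ± 543 FPKM in WT CT, or 0.836 and 0.662 of CT. The LHCB3 to LHCB7, LHCA and PSA sums lay between these classes, at 0.664, 0.694 and 0.749 of CT under EL and at 0.541, 0.505 and 0.563 under S+EL+HS. The difference between LHCB and PSB was also seen in a ratio taken within each library, which no rescaling of libraries changes. Summed LHCB over summed PSB was 1.74 ± 0.105 in WT EL and 1.78 ± 0.0342 in WT S+EL+HS, against 2.51 ± 0.171 in WT CT. The highest EL library (1.86) and the highest S+EL+HS library (1.80) were below the lowest CT library (2.34). Under HS the ratio was 2.25 ± 0.127, with libraries at 2.17 to 2.40 that overlapped CT.

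**Figure D3:**
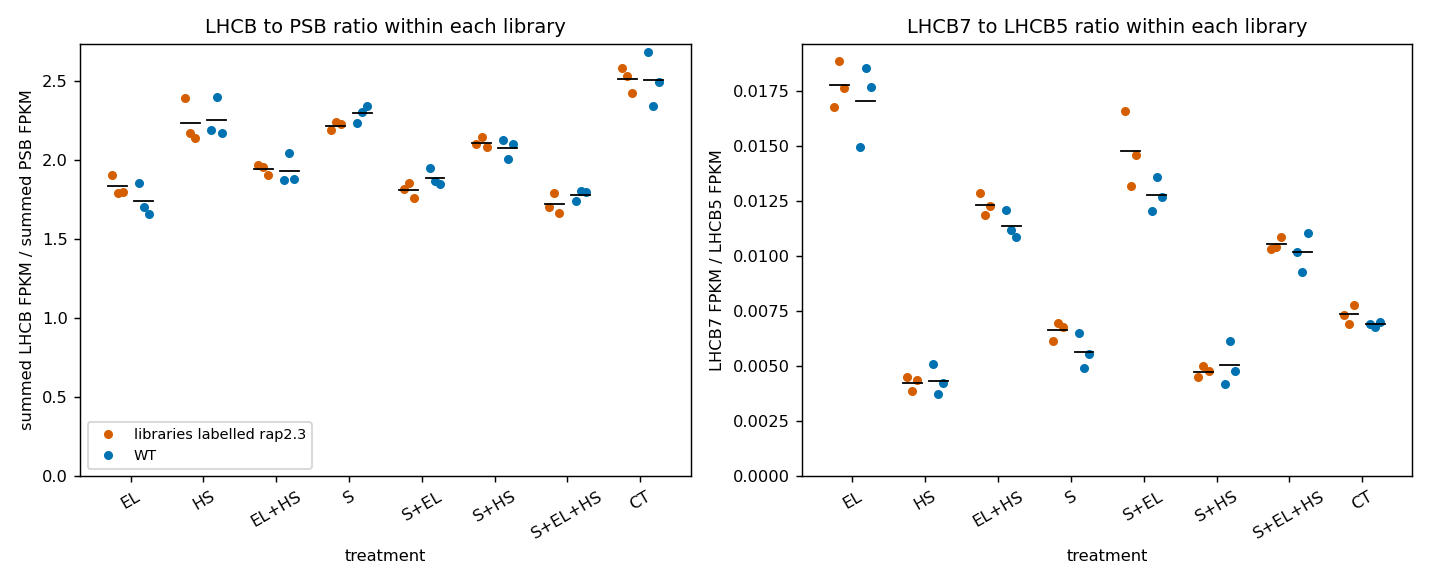
Summed LHCB over summed PSB FPKM (left) and LHCB7 over LHCB5 FPKM (right) within each library (y axes, ratios without unit), by treatment (x axis), for the libraries labelled rap2.3 (orange) and WT (blue); points are libraries and bars means of 3. The LHCB to PSB ratio is lowest in the groups with light, and the LHCB7 to LHCB5 ratio is highest under EL (0.0170 in WT, against 0.00689 in WT CT).

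LHCB1 and LHCB2 encode the bulk of the trimeric antenna, and all 8 genes fell under EL and under each combination with salt, although the EL call of LHCB2.3 was lost in most alternatives. Under EL the log2 differences ran from -1.60 (LHCB1.4) to -0.70 (LHCB2.3). HS lowered 5 of the 8 (15.7% of all genes lower), EL+HS 7 (19.4%) and S 4 (5.17%). The summed LHCB1 RNA was 23107, 23450.1 and 23164 FPKM in WT EL, against 44929, 39698 and 42720.3 FPKM in WT CT. Because the 5 LHCB1 proteins are near-identical, reads could in principle be shared between their genes. No window of 150 bases in the annotated mRNA of any LHCB1 gene occurred in another gene. That check covers exact matches of this length only, and how shared reads were handled is not given. A restriction to the 34 genes other than LHCB1 and LHCB2 was added after the data were seen. Of these, 26 fell under EL (7.7% of all genes lower), 14 under HS (15.7%), 29 under S (5.17%) and 33 under S+EL+HS (16.3%).

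LHCB1.5 (AT2G34420, chr2:14522524-14523568, minus strand) was the most abundant of all 42 genes. Its RNA was at 8741, 10919 and 11198 FPKM in WT EL, at 15850, 15086 and 12346 FPKM in WT HS and at 12738, 16179 and 13206 FPKM in WT EL+HS. The salt groups were at 7602, 9020 and 9492 FPKM in WT S, 7395, 7480 and 7195 FPKM in WT S+EL, 8413, 9235 and 9898 FPKM in WT S+HS and 7886, 8012 and 7438 FPKM in WT S+EL+HS. WT CT was at 19516, 15412 and 16882 FPKM. All EL and salt libraries were below all CT libraries, whereas HS and EL+HS overlapped CT. The log2 differences were -0.75 under EL (SE 0.13, adjusted p = 0.00047 in limma) and -0.99 under S (SE 0.13, adjusted p = 4.7e-05). They were -0.26 under HS (adjusted p = 0.14) and -0.30 under EL+HS (adjusted p = 0.087), which did not pass. The EL+HS difference did pass, as lower, without EL+HS replicate 2 (adjusted p = 0.038).

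LHCB1.2 (AT1G29910, chr1:10472280-10473502, minus strand), the gene of this class with the smallest mean change, separated light from heat. It was at 2016, 1502 and 1592 FPKM in WT EL and 3138, 3769 and 3069 FPKM in WT HS, against 3267, 3229 and 3418 FPKM in WT CT. The EL libraries were all below CT, and the HS libraries lay on both sides of it. The differences were -0.97 under EL (SE 0.13, adjusted p = 5e-05 in limma) and 0.00 under HS (SE 0.13, adjusted p = 0.99). The other groups were at 2284, 2368 and 1794 FPKM in WT EL+HS, 2406, 3021 and 2997 FPKM in WT S, 1950, 1928 and 1937 FPKM in WT S+EL, 2227, 1720 and 2264 FPKM in WT S+HS and 1584, 1627 and 1449 FPKM in WT S+EL+HS. All of these were below CT, and S, at a difference of -0.24 (adjusted p = 0.23), did not pass.

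LHCB2.3 had the largest fall of the 42 genes, and it fell most under HS, S+HS and S+EL+HS. It was at 186, 287 and 276 FPKM in WT HS, 89.0, 75.5 and 97.0 FPKM in WT S+HS and 100.2, 135 and 119.7 FPKM in WT S+EL+HS, against 793, 880.03 and 838 FPKM in WT CT. The log2 differences were -1.77 under HS (SE 0.24, adjusted p = 1e-05 in limma), -3.25 under S+HS (adjusted p = 3e-09) and -2.82 under S+EL+HS (adjusted p = 2.7e-08). The other groups were at 408, 625 and 535 FPKM in WT EL, 431, 480 and 360 FPKM in WT EL+HS, 502, 600 and 528 FPKM in WT S and 635, 325 and 265 FPKM in WT S+EL. Every stressed library was below every CT library, and replicate 1 of S+EL stood above its 2 partners. The EL difference of -0.70 (adjusted p = 0.046) was lost in 8 of 11 alternatives (adjusted p up to 0.164), namely with the replicate block, after rescaling, with no filter, and without any 1 of the 3 CT libraries or EL replicates 1 and 3. The S difference of -0.63 (adjusted p = 0.071) did not pass. It did pass in 2 of 11 alternatives, after rescaling and when the fit held only the compared libraries (adjusted p down to 0.0052). Within a library, LHCB2.3 over LHCB2.1, its close relative, was 0.139 ± 0.0246 in WT HS and 0.0890 ± 0.0102 in WT S+HS, against 0.310 ± 0.0267 in WT CT. The 3' part of LHCB2.3 overlaps AT3G27700, a gene on the opposite strand, which shares 33.9% of its 150-base windows, and that gene averaged between 8.76 and 11.2 FPKM in the WT groups.

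**Figure D4:**
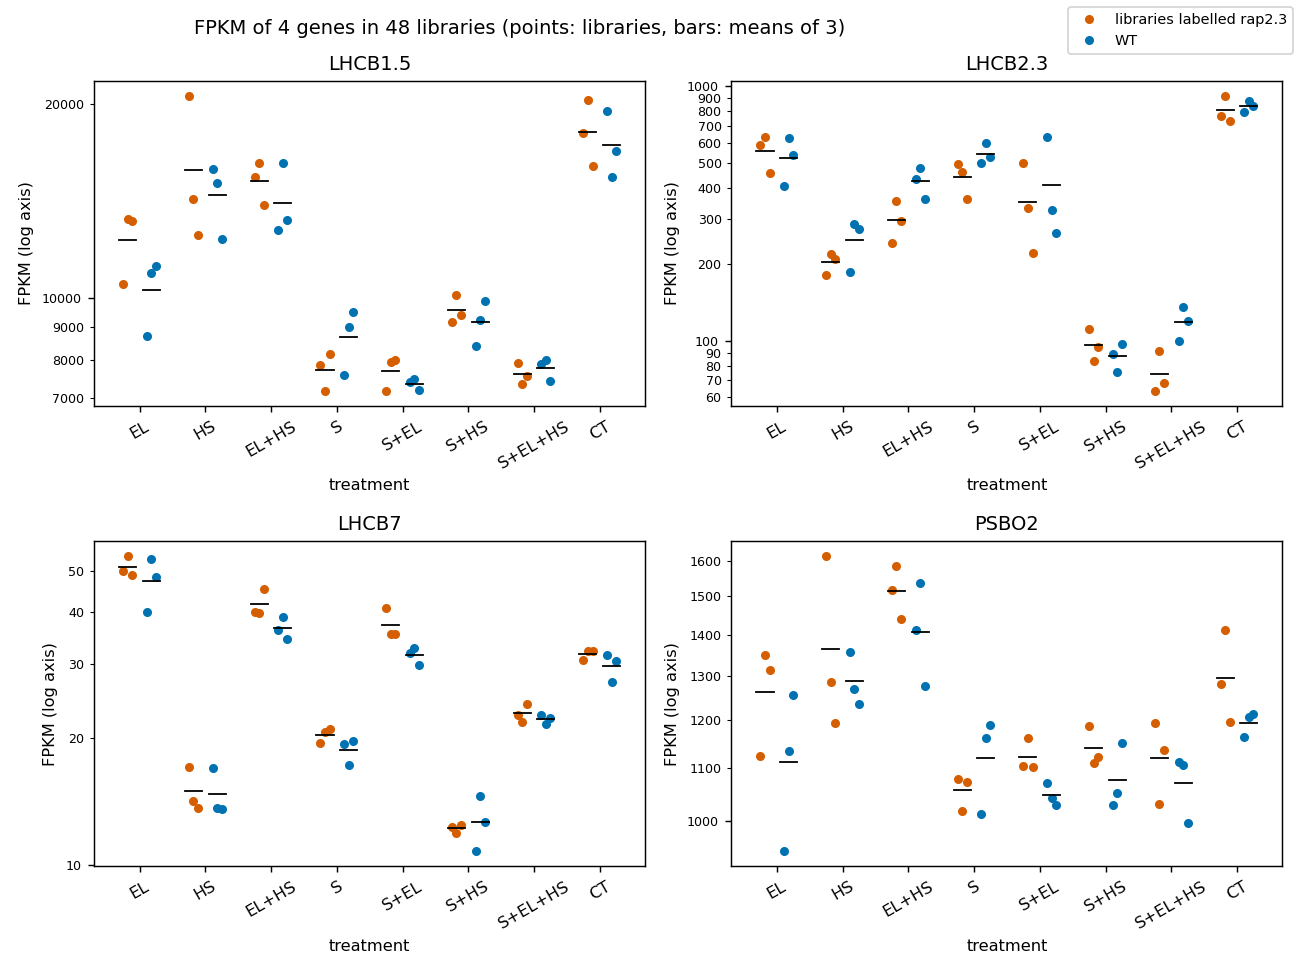
FPKM (y axes, log scale) of LHCB1.5, LHCB2.3, LHCB7 and PSBO2 in the 48 libraries by treatment (x axes), for the libraries labelled rap2.3 (orange) and WT (blue); points are libraries and bars means of 3. LHCB2.3 is lowest in S+HS and S+EL+HS, at 135.5 FPKM or below, LHCB7 is highest in EL, and PSBO2 stays between 947 and 1614 FPKM in all groups.

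Among the other photosystem II antenna genes, LHCB3, LHCB5 and LHCB7 moved under HS, and LHCB4.1, LHCB4.2, LHCB4.3 and LHCB6 did not pass there. EL lowered 5 of the 7 (LHCB3, LHCB4.1, LHCB4.2, LHCB5 and LHCB6) and raised LHCB7 (all genes: 7.7% lower, 10% higher). S (5.17% of all genes lower), S+HS (18.9%) and S+EL+HS (16.3%) lowered all 7. LHCB4.3, a low-abundance LHCB4 form, differed by 0.38 under EL (adjusted p = 0.32 in limma) and by -1.12 under S+HS (adjusted p = 0.0011).

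LHCB5 (AT4G10340), a monomeric linker of photosystem II, was the most abundant of this class. It was at 2681, 2884 and 2740 FPKM in WT EL, 3353, 3689 and 3197 FPKM in WT HS and 2997, 3488 and 3181 FPKM in WT EL+HS, against 4563, 4037 and 4349 FPKM in WT CT. With salt it was at 2972, 3522 and 3541 FPKM in WT S, 2648, 2408 and 2353 FPKM in WT S+EL, 2566, 2377 and 2637 FPKM in WT S+HS and 2223, 2328 and 2023 FPKM in WT S+EL+HS. All stressed libraries were below all CT libraries, and all 7 differences passed, from -0.34 under HS (SE 0.09, adjusted p = 0.0094 in limma) to -0.98 under S+EL+HS (adjusted p = 1.3e-07). Under S (-0.37, adjusted p = 0.0087) the call was lost without S replicate 1 and when the fit held only the compared libraries (adjusted p up to 0.0712).

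LHCB3 (AT5G54270), the third protein of the trimers, had the largest mean change of this class. It was at 2425, 2241 and 2168 FPKM in WT EL, 2738, 3044 and 2896 FPKM in WT HS, 2536, 2816 and 2324 FPKM in WT EL+HS and 2328, 2692 and 2629 FPKM in WT S. It was at 2107, 1849 and 1836 FPKM in WT S+EL, 1907, 1564 and 1802 FPKM in WT S+HS and 1653, 1728 and 1455 FPKM in WT S+EL+HS, against 3790, 3533 and 3711 FPKM in WT CT. Every stressed library was below CT. The differences ran from -0.35 under HS (SE 0.10, adjusted p = 0.012 in limma) to -1.19 under S+EL+HS (SE 0.10, adjusted p = 2.6e-08).

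LHCB7, a rare member of the family, went in opposite directions under light and heat. It was at 40.0, 53.5 and 48.4 FPKM in WT EL and 16.997, 13.7 and 13.6 FPKM in WT HS, against 31.5, 27.2 and 30.5 FPKM in WT CT. All EL libraries were above CT and all HS libraries below it. The differences were 0.64 under EL (SE 0.12, adjusted p = 0.00063 in limma) and -0.97 under HS (SE 0.12, adjusted p = 2.7e-06). The other groups were at 36.2, 38.9 and 34.5 FPKM in WT EL+HS, 19.4, 17.2 and 19.7 FPKM in WT S, 31.9, 32.7 and 29.8 FPKM in WT S+EL, 10.8, 14.6 and 12.6 FPKM in WT S+HS and 22.7, 21.6 and 22.4 FPKM in WT S+EL+HS. S lowered it (-0.64, adjusted p = 0.0007), S+EL overlapped CT (0.08, adjusted p = 0.64) and EL+HS did not pass (0.29, adjusted p = 0.064), though all 3 of its libraries were above CT. After rescaling by size factors the EL+HS difference did pass, as higher (adjusted p = 0.0398). LHCB7 over LHCB5 within a library was 0.0170 ± 0.00188 in WT EL and 0.00434 ± 0.000686 in WT HS, against 0.00689 ± 0.000136 in WT CT (SD, n = 3 each).

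The photosystem I antenna was lowered in 5 of 6 genes by EL (7.7% of all genes lower), 3 by HS (15.7%) and 2 by EL+HS (19.4%). It was lowered in 4 by S (5.17%), 5 by S+EL (12.8%) and all 6 by S+HS (18.9%) and S+EL+HS (16.3%). LHCA1, LHCA2 and LHCA3, proteins of the belt, fell under EL (-0.51, -0.38 and -0.32) and under S (-0.83, -0.53 and -0.65), but not under HS (-0.07, -0.07 and -0.12, adjusted p = 0.6, 0.62 and 0.38 in limma). LHCA5 and LHCA6, which are known to link photosystem I to the NDH complex, fell under HS (-0.69 and -0.48) and did not pass under S (-0.20 and -0.13).

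LHCA4 (AT3G47470) was the most abundant LHCA gene and the one that fell most. It was at 3024, 3241 and 3128 FPKM in WT EL, 4287, 3924 and 3808 FPKM in WT HS, 3599, 4147 and 3396 FPKM in WT EL+HS and 3112, 3288 and 3587 FPKM in WT S. It was at 2814, 2481 and 2362 FPKM in WT S+EL, 2341, 2388 and 2480 FPKM in WT S+HS and 2234, 2329 and 2018 FPKM in WT S+EL+HS, against 5892, 5228 and 5606 FPKM in WT CT. No stressed library reached the CT range. All 7 differences passed, from -0.48 under HS (SE 0.09, adjusted p = 0.00068 in limma) to -1.35 under S+EL+HS (SE 0.09, adjusted p = 3.9e-09).

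LHCA6 (AT1G19150) changed least in this class and was its least abundant gene. It was at 108, 106 and 107 FPKM in WT EL, 78.2, 88.9 and 116 FPKM in WT HS, 114, 94.2 and 96.5 FPKM in WT EL+HS and 97.6, 136 and 128 FPKM in WT S. It was at 127, 113 and 108 FPKM in WT S+EL, 73.3, 65.6 and 77.4 FPKM in WT S+HS and 91.8, 96.8 and 74.5 FPKM in WT S+EL+HS, against 116, 144 and 132 FPKM in WT CT. The S and S+EL libraries overlapped CT, and those of S+HS and S+EL+HS did not. The S+HS difference was -0.85 (SE 0.14, adjusted p = 6.5e-05 in limma). The HS difference of -0.48 (adjusted p = 0.013) was lost without CT replicate 2, HS replicate 1 or HS replicate 2, and when the fit held only the compared libraries (adjusted p up to 0.0816).

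All 12 photosystem I subunit genes were lowered by salt alone (5.17% of all genes lower) and in each of its combinations (12.8% to 18.9%). EL lowered 11 of them (7.7%), PSAH1 being the exception at -0.22 (adjusted p = 0.092 in limma). HS lowered 4 (15.7%), namely PSAN, PSAD2, PSAO and PSAK, by 0.50, 0.46, 0.40 and 0.30 on the log2 scale. EL+HS lowered 7 (19.4%). PSAN and PSAF are on the plastocyanin side, PSAD and PSAE form the stromal ridge that docks ferredoxin, PSAG and PSAK flank the antenna, and PSAH, PSAL and PSAO are at the docking site for the mobile antenna. PSAG, PSAH1 and PSAE1 share 52.3%, 44.7% and 18.2% of their 150-base windows with a gene on the opposite strand, so their values are less certain.

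PSAL (AT4G12800) was the most abundant PSA gene. It was at 2702, 2601 and 2647 FPKM in WT EL, 3113, 3104 and 3185 FPKM in WT HS, 3121, 3166 and 2725 FPKM in WT EL+HS and 2141, 2398 and 2493 FPKM in WT S. It was at 2245, 2195 and 2025 FPKM in WT S+EL, 2094, 1994 and 2199 FPKM in WT S+HS and 2088, 2148 and 1889 FPKM in WT S+EL+HS, against 3347, 3443 and 3680.2 FPKM in WT CT. All stressed libraries were below CT. The differences were -0.40 under EL (adjusted p = 0.0025 in limma) and -0.58 under S (adjusted p = 0.00011), whereas HS (-0.15, adjusted p = 0.18) and EL+HS (-0.22, adjusted p = 0.053) did not pass.

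The 2 PSAD genes encode the same subunit, and PSAD2 (AT1G03130) fell most in this class. It was at 666, 761 and 679 FPKM in WT EL, 847, 989.998 and 869 FPKM in WT HS, 786, 921 and 772 FPKM in WT EL+HS and 754, 906 and 926 FPKM in WT S. It was at 746, 591 and 606 FPKM in WT S+EL, 584, 498 and 548 FPKM in WT S+HS and 588, 597 and 518 FPKM in WT S+EL+HS, against 1281, 1209.7 and 1229 FPKM in WT CT. Every stressed library was below CT, and the differences ran from -0.46 under HS (adjusted p = 0.0028 in limma) to -1.19 under S+HS (adjusted p = 4.2e-08). PSAD1 differed by -0.43 under EL, by -0.18 under HS (adjusted p = 0.16) and by -0.80 under S+HS.

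PSAE2 (AT2G20260) changed least among the PSA genes. It was at 1009, 1119 and 1125 FPKM in WT EL, 1271, 1394 and 1386 FPKM in WT HS, 1249, 1349 and 1197 FPKM in WT EL+HS and 962, 1104 and 1118 FPKM in WT S. It was at 1054, 1048 and 964 FPKM in WT S+EL, 982, 972 and 1056 FPKM in WT S+HS and 905, 955 and 876 FPKM in WT S+EL+HS, against 1503, 1322 and 1319.7 FPKM in WT CT. HS and EL+HS overlapped CT, and the other groups were below it. The differences ran from -0.03 under HS (adjusted p = 0.81 in limma) to -0.60 under S+EL+HS (adjusted p = 1.2e-05). The EL difference of -0.35 (adjusted p = 0.0064) did not pass when the fit held only the compared libraries.

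Photosystem II subunit genes had the smallest median difference of the 5 classes under every stress but HS, at -0.33 under EL and -0.58 under S+EL+HS; under HS their median was -0.22, against -0.16 for the PSA genes. EL+HS lowered 2 of the 9, near the share of all genes (19.4% lower). EL lowered 5 of the 9 (7.7%), HS 4 (15.7%), S 6 (5.17%), and the 3 combinations with salt 8 each (12.8% to 18.9%). PSBR (AT1G79040), the most abundant of them and known to assist the binding of PSBP, was at 6038, 7526 and 7644 FPKM in WT EL, 7326, 6856 and 6431 FPKM in WT HS and 7999, 7535 and 6441 FPKM in WT EL+HS, against 7388, 8107 and 7611 FPKM in WT CT. EL and EL+HS overlapped CT, HS lay just below it, and none of the 3 passed. With salt PSBR was at 5495, 5475 and 6538 FPKM in WT S, 5203, 5185 and 5041 FPKM in WT S+EL, 4813, 5883 and 5650 FPKM in WT S+HS and 5761, 5869 and 5379 FPKM in WT S+EL+HS. All salt libraries were below CT, with differences of -0.40 under S (adjusted p = 0.015 in limma) and -0.58 under S+EL (adjusted p = 0.00039). The S call was lost without CT replicate 2, S replicate 1 or S replicate 2, with no filter, and when the fit held only the compared libraries (adjusted p up to 0.0935).

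PSBW (AT2G30570), a small subunit that helps to hold the photosystem II antenna supercomplex together, changed most in this class. It was at 2014, 2284 and 2228 FPKM in WT EL, 2148, 2169 and 2086 FPKM in WT HS, 2329.5, 2386 and 2112 FPKM in WT EL+HS and 1836, 1986 and 2151 FPKM in WT S. It was at 1707, 1557 and 1521 FPKM in WT S+EL, 1446, 1509 and 1592 FPKM in WT S+HS and 1458, 1562 and 1461 FPKM in WT S+EL+HS, against 2515, 2908 and 2774 FPKM in WT CT. No stressed library reached CT, and all 7 differences passed, from -0.26 under EL+HS (adjusted p = 0.023 in limma) to -0.87 under S+EL+HS (adjusted p = 1.6e-07). The EL call was lost without CT replicate 2 (adjusted p up to 0.102 over the alternatives), and the EL+HS call without CT replicate 2, CT replicate 3 or EL+HS replicate 3 (up to 0.317). Both were also lost after rescaling by size factors and when the fit held only the compared libraries.

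PSBO2 (AT3G50820), the less abundant of 2 genes for the manganese-stabilising protein, was the only one of the 42 that passed under none of the 7 stresses in WT. It was at 947, 1134 and 1255 FPKM in WT EL, 1357, 1269.6 and 1236 FPKM in WT HS, 1411, 1536 and 1276 FPKM in WT EL+HS and 1012, 1162 and 1188 FPKM in WT S. It was at 1072, 1043 and 1029 FPKM in WT S+EL, 1029, 1053 and 1151 FPKM in WT S+HS and 1112, 1106 and 997 FPKM in WT S+EL+HS, against 1164, 1206 and 1213 FPKM in WT CT. EL and S overlapped CT, the HS and EL+HS libraries were above it, and those of the salt combinations below it. The differences lay between -0.19 under S+EL (adjusted p = 0.14 in limma) and 0.23 under EL+HS (adjusted p = 0.075). The EL+HS difference did pass, as higher, without EL+HS replicate 3 (adjusted p = 0.042). PSBO1 differed by -0.58 under S+EL+HS (adjusted p = 5e-05), and PSBO2 over PSBO1 within a library was 0.422 ± 0.0116 in WT S+EL+HS and 0.394 ± 0.0195 in WT HS, against 0.315 ± 0.0190 in WT CT (SD, n = 3 each).

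For 17 of these genes in WT, the level under light and heat together lay above that given by the sum of both differences. The departure of EL+HS from EL plus HS on the log2 scale was positive for 42 of 42 genes in WT, with a median of 0.40, against a median of -0.09 for all genes. It passed for 17 of the 42, all higher, where 3.35% of all genes tested were called higher and 5.93% lower. The largest departures were those of LHCB2.3 (1.48, SE 0.33, adjusted p = 0.0094 in limma) and LHCB1.4 (1.31, SE 0.31, adjusted p = 0.013), followed by LHCB2.1 (0.83, adjusted p = 0.0012). By class, 6 of 8 LHCB1 and LHCB2 genes, 3 of 7 other LHCB genes, 2 of 6 LHCA, 4 of 12 PSA and 2 of 9 PSB genes passed. For LHCB2.3 the mean was 523 FPKM in WT EL, 250 FPKM in WT HS and 423 FPKM in WT EL+HS, against 837 FPKM in WT CT, so that it was higher with light and heat than with heat alone. The count was 9 without EL+HS replicate 2, 10 without HS replicate 3, and 11 without HS replicate 2 or CT replicate 3. It was 11 with no filter and 6 when the fit held only the compared libraries.

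**Figure D5:**
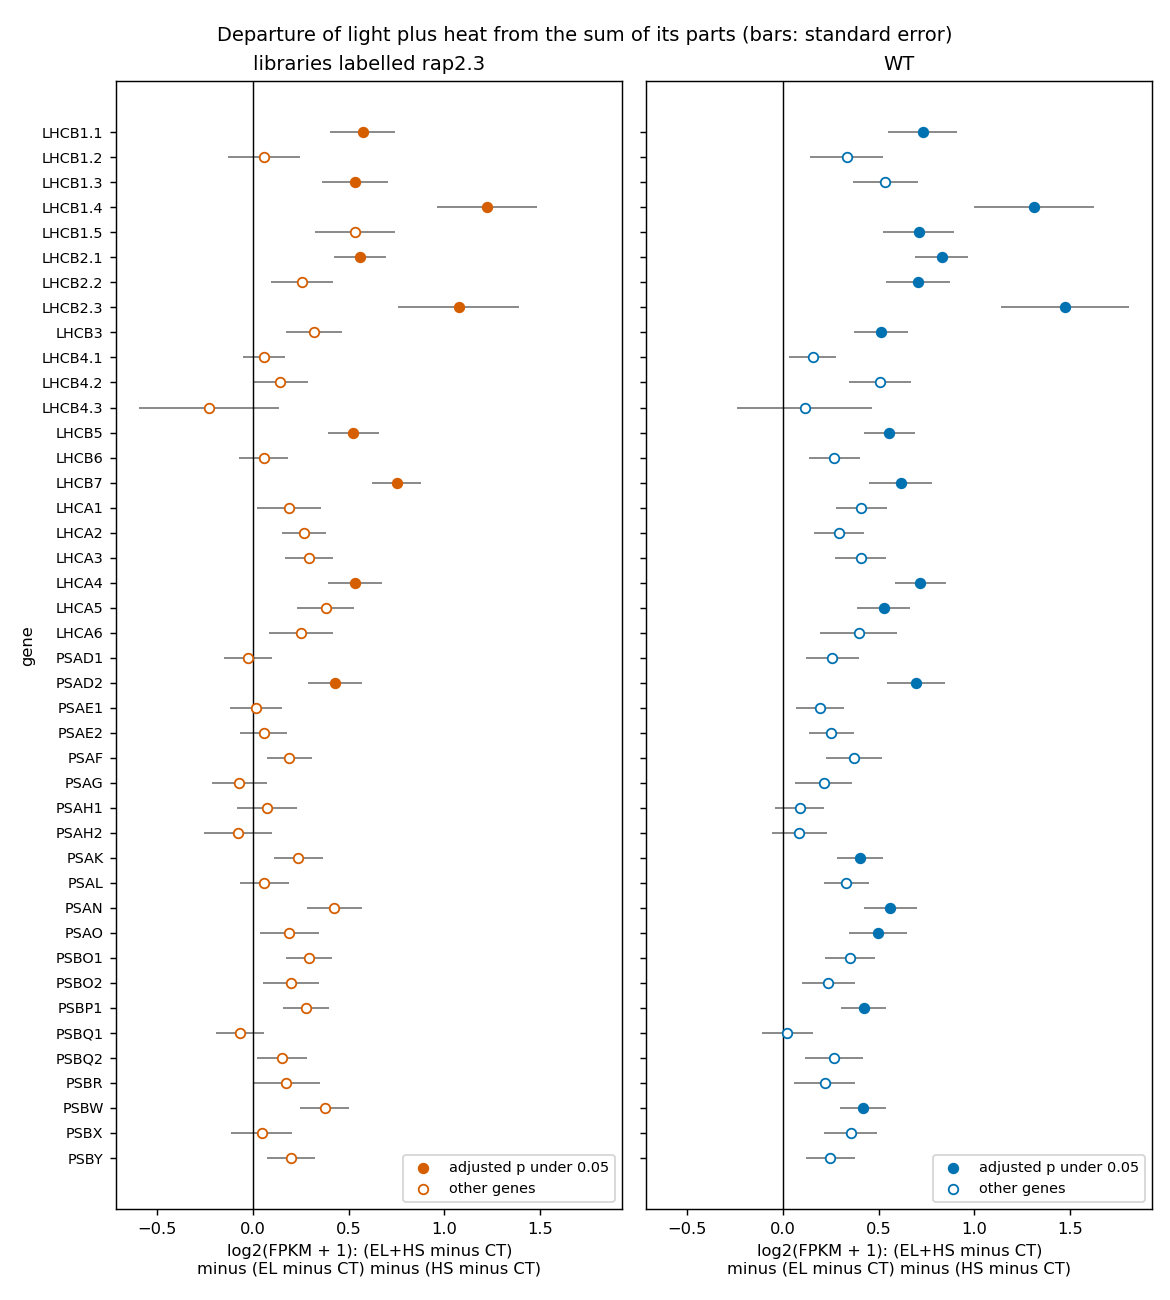
Departure of the EL+HS difference from the sum of the EL and HS differences (x axis, log2(FPKM + 1), bars are standard errors) for the 42 genes (y axis), in the libraries labelled rap2.3 (left) and in WT (right). Filled points have an adjusted p under 0.05; in WT all 42 points are above 0 and 17 are filled, and in the libraries labelled rap2.3 9 are filled.

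Light and heat were also compared directly, a contrast added after the data were seen. In WT, 4 of the 42 genes were higher under EL than under HS, below the share of all genes (13.8% higher), and 20 were lower (12.9% lower). The 4 were LHCB7 (1.61, SE 0.12, adjusted p = 1.1e-08 in limma), LHCB2.3 (1.07, adjusted p = 0.0022), LHCB4.3 (0.68, adjusted p = 0.049) and LHCA5 (0.32, adjusted p = 0.021). The largest differences in the other direction were LHCB1.4 (-1.21, adjusted p = 0.00038), LHCB1.2 (-0.97, adjusted p = 2.3e-05) and LHCB4.2 (-0.96, adjusted p = 4.2e-06). The count was 15 without HS replicate 2, and 11 when the fit held only the compared libraries.

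Salt added to light plus heat lowered 40 of the 42 genes in WT, and none rose, where 4.75% of all genes tested were called lower and 14.1% higher. The median difference between S+EL+HS and EL+HS was -0.56, against 0.17 for all genes, and every member lay below that median. LHCB2.3 had the largest (-1.83, SE 0.24, adjusted p = 7.9e-05 in limma), and LHCB1.3 (-0.09, adjusted p = 0.61) and LHCA6 (-0.21, adjusted p = 0.3) did not pass. PSBO2 passed here at -0.39 (adjusted p = 0.011).

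Root marker genes rose in the same salt comparisons. Of 12 listed, 11 were tested, and 8 rose under S (13.6% of all genes higher), 9 under S+EL (23.2%), 7 under S+HS with 1 lower (26%) and 8 under S+EL+HS (23.6%). Under EL 5 rose (10%), and under HS 2 rose, near the share of all genes (15%), with 1 lower. Their summed level was 2872 to 4465 FPKM in WT S and 1884 to 2434 FPKM in WT S+EL+HS, against 1758 to 2111 FPKM in WT CT, most of it from PYK10, a beta-glucosidase of the root. CASP1, which marks the endodermis, was at 95.5, 78.4 and 56.1 FPKM in WT S, against 17.9, 20.8 and 16.3 FPKM in WT CT (difference 1.98, SE 0.24, adjusted p = 2.2e-05 in limma). The only listed marker at or near 0 was NRT2.1, at 0.289 FPKM or below in these 2 groups and WT S+EL+HS. Of 8 markers of shoot epidermis and guard cells, 4 fell under S (5.17% of all genes lower). Among them were FAMA (-1.02, adjusted p = 0.00014 in limma), a factor of guard cell development, and TMM (-0.98, adjusted p = 0.00024), a receptor of stomatal patterning. CER1, KCS6 and FDH, also listed, averaged 28.9, 250 and 173 FPKM in WT S, against 27.5, 278 and 181 FPKM in WT CT, and overlapped CT. In WT S+EL they averaged 58.3, 371 and 166 FPKM, with CER1 and KCS6 above all CT libraries. The sum of the 8 markers was 449 to 553 FPKM in WT S, against 517 to 580 FPKM in WT CT. The part of the root and shoot markers in the salt results was not tested.

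Genes of neighbouring steps of photosynthesis were called in both directions. Of 13 genes of electron transport and ATP synthase, EL lowered 4 and raised 2 in WT (all genes: 7.7% lower, 10% higher), and HS lowered 7 and raised 3 (15.7% lower, 15% higher). S lowered 5 (5.17% lower), and S+EL+HS lowered 11 and raised 2 (16.3% lower, 23.6% higher). FD1, a leaf ferredoxin, rose by 1.15 under EL (adjusted p = 4e-05 in limma) and by 1.52 under S+EL+HS (adjusted p = 3.2e-07), and PGRL1B, of cyclic electron flow, rose by 0.63 under S+EL+HS (adjusted p = 4.3e-05). PETE1, a plastocyanin, was lower under EL (-0.84, adjusted p = 4e-05) and higher under HS (0.39, adjusted p = 0.012). Of 11 genes for antenna targeting and state transitions, EL lowered 7, HS lowered 6 and raised 1, S lowered 5, and S+EL+HS lowered 9. STN7, the kinase that phosphorylates LHCB1 and LHCB2, fell by 0.70 under HS and by 0.79 under S+EL+HS, and CPSRP43, which escorts antenna proteins in the stroma, fell by 0.67 under EL.

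Of 14 regulators of nuclear photosynthesis genes, 3 rose and 3 fell under EL (all genes: 10% higher, 7.7% lower), and 2 rose and 4 fell under HS (15% higher, 15.7% lower). Under S 3 fell (5.17% lower), and under S+EL+HS 2 rose and 4 fell (23.6% higher, 16.3% lower). The regulators higher under HS were thus near the share of all genes, and those higher under S+EL+HS were below it. HY5, a light-signalling factor that binds G-box-like letters, was at 39.9, 58.0 and 50.4 FPKM in WT EL and 22.9, 17.6 and 11.8 FPKM in WT HS, against 12.6, 17.8 and 22.5 FPKM in WT CT, a difference of 1.46 under EL (SE 0.21, adjusted p = 7.5e-05 in limma) and -0.02 under HS (adjusted p = 0.95). PIF4, a thermosensory factor, was at 24.3, 33.4 and 39.8 FPKM in WT EL and 87.1, 84.3 and 95.5 FPKM in WT HS, against 52.2, 35.6 and 45.4 FPKM in WT CT, a difference of -0.45 under EL (adjusted p = 0.035) and 1.00 under HS (adjusted p = 2.4e-05). HY5 in EL and PIF4 in HS did not overlap CT. GLK1 and GLK2 are activators of antenna genes. GLK1 was at 82.5, 77.6 and 85.2 FPKM in WT S, against 85.7, 80.0 and 104 FPKM in WT CT, and passed under none of the 7 stresses. GLK2 fell under S (-0.36, adjusted p = 0.0068), S+EL (-0.69) and S+HS (-0.48), and differed by -0.16 under S+EL+HS (adjusted p = 0.16).

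In the libraries labelled rap2.3 every stress again lowered some of these genes. EL lowered 26 of the 42 and raised 1, where 6.67% of the 20592 genes tested were called lower and 7.61% higher. HS lowered 19 (14.2% lower, 15.7% higher), EL+HS lowered 30 and raised 1 (30.8% lower, 11.1% higher), and S lowered 39 (5.22% lower, 21% higher). S+EL lowered 38 (11.6% lower, 23.2% higher), S+HS 41 (15.7% lower, 27.2% higher) and S+EL+HS 41 (20.2% lower, 22.5% higher). The medians were -0.32 under EL, -0.22 under HS, -0.35 under EL+HS, -0.63 under S, -0.68 under S+EL, -0.76 under S+HS and -0.98 under S+EL+HS. Under EL+HS all genes had a median of -0.22, and after rescaling by size factors 12 of the 42 were lower and 2 higher. Under S and S+HS the medians of all genes were 0.18 and 0.13. When the fit held only the compared libraries, 13 were called under EL and 12 under HS, and after rescaling 16 under EL. Without CT replicate 2, 16 were called under EL and 12 under HS; that library had the highest share of these genes (18.9% of FPKM).

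LHCB7 again rose with light and fell with heat. It was at 49.9, 54.3 and 48.9 FPKM in rap2.3 EL and 17.1, 14.2 and 13.7 FPKM in rap2.3 HS, against 30.7, 32.3 and 32.3 FPKM in rap2.3 CT, with differences of 0.67 (SE 0.09, adjusted p = 4.3e-05 in limma) and -1.04 (SE 0.09, adjusted p = 8.2e-08). The light and the heat libraries lay on opposite sides of CT without overlap. LHCB2.3 was at 181, 220 and 209 FPKM in rap2.3 HS and 63.5, 91.0 and 68.1 FPKM in rap2.3 S+EL+HS, against 767, 919 and 734 FPKM in rap2.3 CT, with differences of -1.98 (adjusted p = 1.7e-06) and -3.44 (adjusted p = 1e-09). PSBO2 passed under S (-0.29, adjusted p = 0.042) and under none of the other 6 stresses.

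The departure of EL+HS from EL plus HS passed for 9 of the 42 in these libraries, all higher, where 3.04% of all genes were called higher and 11.7% lower. They were LHCB1.4 (1.22), LHCB2.3 (1.07), LHCB7 (0.75), LHCB1.1 (0.57), LHCB2.1 (0.56), LHCB1.3 (0.53), LHCA4 (0.53), LHCB5 (0.53) and PSAD2 (0.43). The median of the 42 was 0.22, against -0.20 for all genes, and 37 were positive. The count was 4 without CT replicate 2 or HS replicate 3, 5 without EL replicate 3 or EL+HS replicate 2, and 17 without HS replicate 1. It was 3 when the fit held only the compared libraries and 15 after rescaling. Direct comparison of EL with HS gave 4 higher, below the share of all genes (12% higher), and 14 lower (15% lower). LHCB7 (1.71) and LHCB2.3 (1.44) had the largest differences. These 18 calls became 11 without EL replicate 2 or after rescaling, and 5 when the fit held only the compared libraries. Salt added to light plus heat lowered 39 (6.04% lower, 25.1% higher), with a median of -0.64, against 0.23 for all genes.

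None of the 42 genes differed between the libraries labelled rap2.3 and WT at any of the 8 treatments or in the mean over them, and none showed an interaction of genotype with a stress, at an adjusted p under 0.05 in limma. Of the 21322 genes tested, 7.39% were called under EL+HS and 10.3% in the mean over treatments. The shares were 0.155% under EL, 0.0657% in CT, 0.061% under S+EL+HS, 0.0281% under S+HS, 0.0234% each under S and S+EL, and 0.0188% under HS. In the interactions 0.00469% were called for HS and for S+EL, and 0% for the other 5 stresses. An unadjusted p under 0.05 was reached by 7 of the 42 under EL, 4 under S+EL+HS and 3 under EL+HS. It was reached by 2 under S, 1 under S+EL and 5 in the mean, and by 0 in CT, HS and S+HS. For the interactions it was reached by 2 with EL+HS, 1 with S and 0 with each of the other 5 stresses. No share of all genes is given at this unadjusted threshold, so whether these counts exceed it was not tested. Blocking on replicate number gave 1 gene under EL+HS, and blocking on treatment and number gave 3 there, 1 under S+EL+HS and 3 in the mean. Without rap2.3 EL+HS replicate 2 there were 2 under EL+HS, a pseudocount of 0.1 gave 1 there, and rescaling or leaving out WT HS replicate 1 gave 2 in the mean. The median differences of the 42 were 0.13 at EL, -0.14 at S and -0.08 at S+EL+HS, and between -0.04 and 0.06 at the other treatments.

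The gene nearest to the threshold was LHCB2.2 at EL+HS. It was at 1085, 1366 and 1068 FPKM in rap2.3 EL+HS, a mean of 1173 ± 168 FPKM, against 1592, 1534 and 1360 FPKM in WT EL+HS, a difference of -0.36 (SE 0.12, adjusted p = 0.051 in limma). LHCB2.3 differed by -0.67 at S+EL+HS (SE 0.24, adjusted p = 0.33) and by -0.22 in the mean over treatments (adjusted p = 0.087), and LHCB7 by 0.10 in the mean (adjusted p = 0.075). At S+EL+HS the LHCB2.3 libraries, at 63.5, 91.0 and 68.1 FPKM in rap2.3 S+EL+HS and 100.2, 135 and 119.7 FPKM in WT S+EL+HS, did not overlap, and at CT they did. At EL all 7 genes with an unadjusted p under 0.05 were higher, among them PSAL (0.22, SE 0.08, adjusted p = 0.38) and LHCA1 (0.25, SE 0.10, adjusted p = 0.47). These p-values miss the threshold and do not show that the genotypes were alike.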

How the data were processed

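RNA from whole seedlings (48 libraries, 3 in each of 16 groups) was measured by paired-end RNA sequencing. The authors deposited FPKM per gene, 1 table for each genotype. HISAT2, Cufflinks and the TAIR10 build are named, per the submitters' processing notes, without version or role. The annotation release, strand setting and handling of shared reads are not given in the sources used here. No counts were used, so the depth behind each value is unknown and no counting interval is given.

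Rows of 2 identifiers present more than once were summed, and groups were taken from the labels. Genes with at least 1 FPKM in at least 3 libraries were fitted as log2(FPKM + 1), within each genotype for stress contrasts and over all 48 libraries for genotype and interaction contrasts. The test was limma 3.58.1 (R 4.3.3, moderated, two-sided), with Benjamini-Hochberg adjustment over all genes tested and a threshold of 0.05. Differences on this scale understate changes of low genes. Figures used Python 3.11.15 and matplotlib 3.10.9, and the fit was tested on simulated data. Replicates are biological repeats per the labels.

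The members and gene lists were chosen with earlier results of these data known. Values in every WT library are given for the most abundant gene of each class at CT and for those with the largest and smallest mean change over 7 stresses. Of other lists, at most 2 genes each way per contrast are named, and always GLK1, GLK2, PIF4 and HY5. The contrast of EL with HS and the count without LHCB1 and LHCB2 were added after the data were seen. Deviations from group means of same-numbered libraries of the 2 genotypes correlated at 0.52, 0.103 and 0.414 under EL, and at least 1 correlation was at or under 0.1 in each of the other 7 treatments, so only the EL numbers met the rule for pairing. Between CT and stress libraries the correlations were -0.117 to 0.115. Upstream sequences are printed for 4 of the 42 members, and motif counts cover all 42.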

Additional observations from a re-analysis of the deposited data

How the results depend on the processing

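Every count was recomputed with each library left out in turn, with a replicate block, with a fit restricted to the libraries compared, after rescaling by size factors, unfiltered, and with a pseudocount of 0.1. Calls of single genes were followed under these alternatives only for stress against CT in WT, and only for the genes with values given in every WT library. Of these calls, 1042 kept their side of the threshold, 28 lost it, 8 gained it and 0 reversed. This tally leaves out the other named genes, the departure, EL against HS, salt added to light plus heat, the libraries labelled rap2.3 and the genotype contrasts. With the restricted fit, the counts were 21 for WT EL, 6 for the WT departure, 11 for WT EL against HS, 13 for rap2.3 EL, 12 for rap2.3 HS, 3 for the rap2.3 departure and 5 for rap2.3 EL against HS; fewer libraries leave fewer residual degrees of freedom. With no filter the WT departure had 11. Rescaled by size factors, the counts were 16 for rap2.3 EL, 14 for rap2.3 EL+HS, 15 for the rap2.3 departure, 11 for rap2.3 EL against HS and 2 for the mean genotype difference. Rescaling moved the summed FPKM of the 42 genes relative to CT to 0.5415 in WT S+EL, 0.5419 in WT S+HS, 0.9031 in rap2.3 EL+HS, 0.5413 in rap2.3 S, 0.5265 in rap2.3 S+EL and 0.5192 in rap2.3 S+HS; without rescaling these were 0.581, 0.575, 0.756, 0.630, 0.571 and 0.572. The genotype difference at EL+HS had 1 call with a pseudocount of 0.1, 1 with a replicate block on number and 3 with a replicate block on treatment and number, which also gave 1 at S+EL+HS and 3 in the mean over treatments. The replicate block moved no other count by over 1.5 times. Leaving out 1 library moved 8 of 36 counts by over 1.5 times. The ranges were 9 to 21 for the WT departure (lowest without WT EL+HS replicate 2), 15 to 23 for WT EL against HS (without WT HS replicate 2), 16 to 30 for rap2.3 EL, 12 to 21 for rap2.3 HS and 4 to 17 for the rap2.3 departure (each lowest without rap2.3 CT replicate 2), 11 to 19 for rap2.3 EL against HS (without rap2.3 EL replicate 2), 0 to 2 for genotype at EL+HS and 0 to 2 for the mean genotype difference. The summed FPKM relative to CT ranged from 0.6948 to 0.7599 in rap2.3 EL, 0.6044 to 0.661 in rap2.3 S, 0.5484 to 0.5997 in rap2.3 S+EL, 0.5484 to 0.5998 in rap2.3 S+HS and 0.4679 to 0.5117 in rap2.3 S+EL+HS when libraries were left out. Except where the alternative's own construction shows it, the cause was not tested. The deposited values give no depth, so precision rests on the spread of 3 libraries a group.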
